A study of Mus musculus with 8 samples.

Results

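The cytosolic ribosomal protein genes encode the protein shell of the ribosome, the particle that makes every other cellular protein. They were taken here as the rows, protein-coding in RefSeq, whose mouse symbol begins with Rpl or Rps and a digit, together with Rplp0, Rplp1, Rplp2 and Rpsa. Kinases named Rps6k and genes that RefSeq calls pseudogenes were left out. The rule found 89 genes among the 27179 of the count table, 54 with large subunit names and 35 with small subunit names. It also takes in paralogues, retrocopies (Rpl37rt, Rps27rt, Rpl32l and Rps23rg1) and Rps19bp1, which is named for binding Rps19 and is not a subunit of the ribosome. GENCODE M21 lists Rpl32l as a processed pseudogene and Rpl37rt as a processed transcript, and both were kept.

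RNA was sequenced from neurospheres, floating clusters of dividing neural stem and progenitor cells, grown from C57BL/6 mouse fetuses of embryonic day 14.5 in proliferation medium. Kat7 encodes a histone acetyltransferase. The 4 Kat7 deleted cultures were Kat7 lox/lox with the Cre transgene NesCre T/+, and the 4 Kat7 intact cultures were Kat7 +/+ with the same transgene, each from 1 fetus. The driver named in the transgene, Nestin, is active in neural precursors, and the transgene is shared by both genotypes; Cre activity itself was not measured. Each genotype came from 3 litters, none of them shared, so genotype and litter cannot be told apart. Shared litters within a genotype held intact replicates 1 and 2, and deleted replicates 3 and 4.

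A ribosome has a small subunit, which reads the mRNA, and a large subunit, which joins amino acids. Nearly every ribosomal protein is present once in each ribosome, and cells usually make these proteins in step. Their mRNAs typically begin with a 5′ terminal oligopyrimidine tract, a C followed by a run of C and T, through which the kinase complex mTORC1 controls their translation. The genes have also left many retrocopies and pseudogenes in mammalian genomes, and reads of nearly identical copies are hard to assign.

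Library totals ran from 10687817 to 22444359 assigned reads. The targeted gene had 1204, 1289, 1656 and 2111 reads in intact replicates 1 to 4 and 416, 4, 253 and 1 in deleted replicates 1 to 4, so deleted replicates 1 and 3 kept Kat7 reads. Its log2 fold change, deleted minus intact, was -3.02 ± 1.1 (standard error, n = 4 libraries a genotype; adjusted p = 0.128, edgeR quasi-likelihood test). Mitochondrial genome reads made up 19.0% to 23.5% of the intact libraries and 29.9%, 19.0%, 17.1% and 34.4% of deleted replicates 1 to 4. Neural stem cell markers summed to between 5943 and 6962 CPM (read counts after scaling for library size) in the intact libraries and between 4116 and 7343 CPM in the deleted ones, and 0 of their 12 genes passed the test. Other cell types' markers also differed between the libraries. The 8 astrocyte markers summed to between 104.8 and 201.8 CPM in the intact libraries and between 169.1 and 965.7 CPM in the deleted ones, highest in deleted replicate 1, and 3 of the 8 (Aqp4, Apoe and Clu) rose. Fibroblast and smooth muscle markers summed to between 2.25 and 3.95 CPM in intact libraries and to 5.52, 363.7, 21.96 and 241.0 CPM in deleted replicates 1 to 4, and 2 of the 3 tested (Acta2 and Thbs2) rose. Of 6 tested neuron markers 2 fell (Elavl3 and Neurod1). Another, Dcx, was not called but reached 100.6 CPM in deleted replicate 2, against at most 1.27 CPM in any other library. Of 3 tested endothelial markers 1 fell (Kdr, at most 1.14 CPM in any library). The other endothelial markers, Tek and Emcn, had log2 fold changes of 0.69 and 1.23 and were not called. None of 5 tested oligodendrocyte markers passed the test, but their sums were uneven. Deleted replicate 2 had only 446.6 CPM and deleted replicate 4 had 974.7 CPM. Deleted replicates 1 and 3, with 1696 and 1618 CPM, stayed inside the intact range of 1358 to 1718 CPM. The microglial markers C1qa and C1qb and the globins Hba-a1 and Hbb-bs were at 0 in all libraries. In bulk RNA, fewer cells of a type and less RNA per cell cannot be told apart, and the part of these markers in the results below was not tested.

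Most ribosomal protein genes had somewhat lower RNA levels in the deleted group, but the difference was carried by deleted replicates 1 and 3 and only Rpl22 passed the test. Of the 89 genes, 85 had enough reads to be tested, 50 with large and 35 with small subunit names. Over these the median log2 fold change was -0.25, against 0.05 for all 13498 genes tested, and 80 lay below 0. At an adjusted p under 0.05, 1 of the 85 was lower and 0 were higher, where 2.8% of all tested genes were called lower and 5.1% higher. At an unadjusted p under 0.05, 16 of the 85 were lower and 0 higher, where the background was 10.4% lower and 15.8% higher. In 13 genes (15.3%) all deleted libraries lay below all intact ones, where 9.21% of all genes did so, and in 0 genes did all lie above, where 10.7% did. The large subunit genes had a median of -0.23 with 46 of 50 below 0, and the small subunit genes a median of -0.28 with 34 of 35 below 0.

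**Figure D1:**
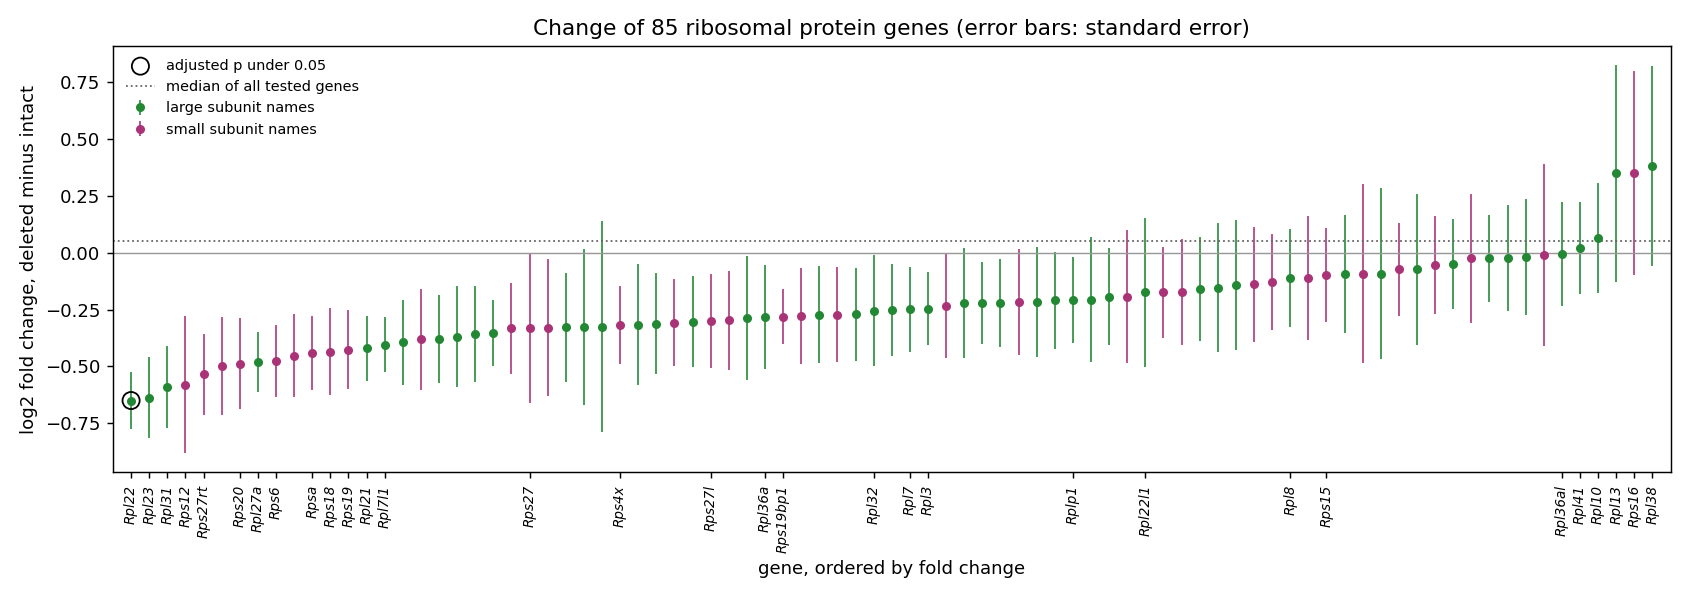
Log2 fold change (deleted minus intact) of the 85 tested ribosomal protein genes in ascending order, with standard errors, coloured by the subunit in the gene's name; genes described in the text for their change, level or paralogues are labelled. Values run from -0.65 for Rpl22, the circled gene with an adjusted p under 0.05, to 0.38 for Rpl38, and 80 points lie below 0, where the dotted line at 0.05 is the median of all tested genes.

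The libraries of the deleted genotype did not behave alike. Measured against the mean of the intact libraries, the median ribosomal protein gene stood at -0.82 log2 units in deleted replicate 1, -0.02 in replicate 2, -0.37 in replicate 3 and 0.02 in replicate 4. Those medians correspond to 56.7%, 98.3%, 77.5% and 101.2% of the intact level. The intact libraries stayed between -0.04 and 0.03. In deleted replicate 1, 82 of the 85 genes lay below their lowest intact library, and in replicate 3 it was 67 of 85, where the shares over all tested genes were 35.8% and 32.4%. In replicates 2 and 4 the counts were 32 and 22 of 85, where the shares over all tested genes were 35.6% and 37.8%. The pair with low ribosomal protein RNA was the pair that kept Kat7 reads. Replicates 3 and 4, which differed in this respect, came from the same litter. The deleted libraries also differed in other ways. Summed astrocyte markers were highest in replicate 1, where Slc1a2 alone had 540.2 of 965.7 CPM. Gfap, Aqp4, S100b, Slc1a2 and Apoe were highest there among the deleted libraries, but Aldh1l1, Clu and Gja1 in replicate 4. Summed fibroblast and smooth muscle markers were highest in replicates 2 and 4, and summed oligodendrocyte markers were lowest there. With so few cultures these features cannot be told apart, and the part of the remaining Kat7 reads was not tested. Without deleted replicates 1 and 3 the median log2 fold change was -0.01 and 44 of 85 genes lay below 0, and without replicate 1 alone it was -0.11 with 60 below 0. Without replicate 2 it was -0.33 and 11 of the 85 genes were called lower. Calls also rose over all genes, with 922 of 13782 lower in that setting against 378 of 13498 with all libraries.

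**Figure D2:**
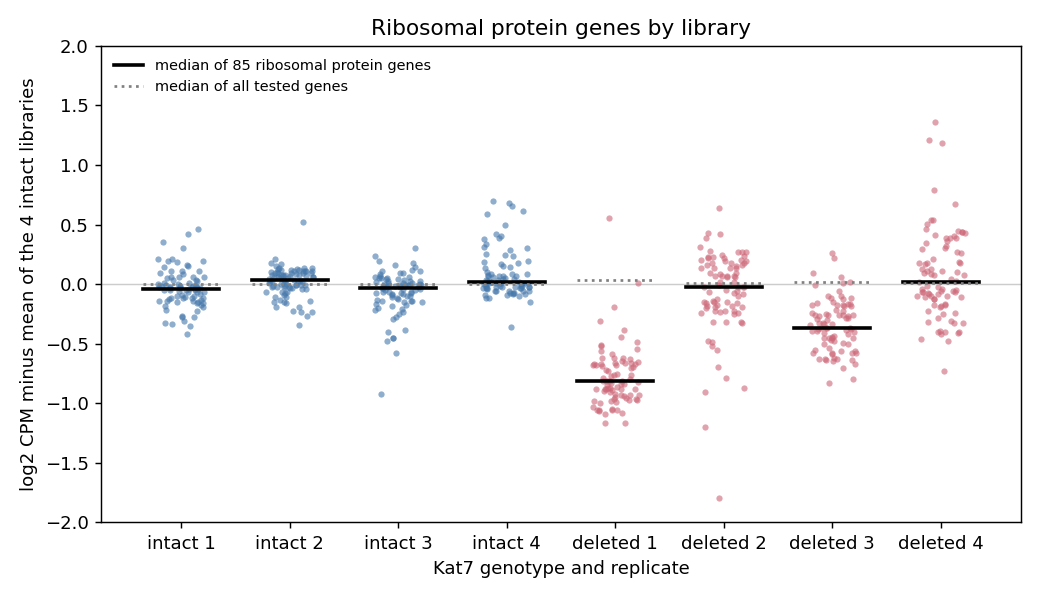
Each point is 1 of 85 ribosomal protein genes, as its log2 CPM minus its mean over the 4 intact libraries, for the 8 libraries by genotype and replicate. Black bars are medians over the genes and dotted bars the medians of all tested genes; the black bars of deleted replicates 1 and 3 lie at -0.82 and -0.37 and those of the other libraries between -0.04 and 0.03.

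The genes moved together from library to library. Over all pairs of the 85 genes the median correlation of log2 CPM was 0.727 across the 8 libraries and 0.843 across the 4 deleted libraries, a description over libraries that share their scaling. Both values include deleted replicate 1, the lowest library for 75 of the 85 genes, and have no value for other genes beside them. The median SD of log2 CPM was 0.121 among intact and 0.442 among deleted libraries, beside 0.169 and 0.381 for all tested genes. As a share of all assigned reads the 89 genes took 1.12%, 1.21%, 1.17% and 1.09% in intact replicates 1 to 4 and 0.516%, 1.16%, 0.952% and 0.909% in deleted replicates 1 to 4. With mitochondrial reads left out of the total, deleted replicates 1 to 4 had 0.736%, 1.43%, 1.15% and 1.38%, beside 1.43% to 1.5% in the intact libraries, so replicates 1 and 3 stayed low.

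Rpl22 was the 1 gene called. It encodes an RNA-binding protein at the surface of the large subunit that mice need for the development of αβ T cells. Rpl22 (Entrez 19934, on chromosome 4) had 260.7, 275.1, 268.3 and 272.2 CPM in intact replicates 1 to 4 and 163.4, 143.7, 185.4 and 193.5 CPM in deleted replicates 1 to 4. The intact libraries stayed within a narrow band, and every deleted library fell well below it. The log2 fold change was -0.65 ± 0.13 (adjusted p = 0.0218, edgeR). Unlike the family as a whole, Rpl22 was low in deleted replicates 2 and 4 as well. Relative to the median ribosomal protein gene of the same library it stood at 0.10, -0.88, -0.17 and -0.49 log2 units in deleted replicates 1 to 4, and among the 85 genes it ranked 55th, 3rd, 20th and 2nd from the lowest. Of its 100-base transcript windows, 91.2% occur in no other annotated gene, allowing up to 3 mismatches. The call was kept in 18 of 24 alternatives and lost when any intact replicate was left out (adjusted p 0.068 to 0.0857), when littermates were summed (0.0844) and with replicate number as a block (0.0723), while the log2 fold change stayed between -0.79 and -0.57.

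Rpl23 and Rpl31 came next among the large subunit genes. Rpl23, whose protein also binds the p53 inhibitor MDM2, had 108.4, 113.7, 99.3 and 96.3 CPM in the intact libraries and 54.0, 93.2, 58.7 and 62.9 CPM in the deleted ones. Deleted replicate 2 stood just under the lowest intact library and the other deleted libraries far under it, for a log2 difference of -0.64 ± 0.18 (adjusted p = 0.061, edgeR). Rpl31, whose protein lies near the exit of the tunnel for the growing peptide, had 10.7, 11.4, 9.0 and 12.9 CPM in the intact libraries and 7.04, 7.80, 6.21 and 8.17 CPM in the deleted ones. The genotypes did not overlap, with a log2 difference of -0.59 ± 0.18 (adjusted p = 0.0808, edgeR). Exons of Rpl31 overlap those of Tbc1d8 on the opposite strand by 420 bases, and with no strand setting stated their reads cannot be told apart. Rpl27a and Rpl21 also had every deleted library below every intact one, at -0.48 ± 0.13 and -0.42 ± 0.14.

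The lowest small subunit genes were Rps12 and Rps27rt. Rps12, which in Drosophila is needed for the competition between cells with different ribosomal protein gene dosage, had 11.8, 12.4, 12.4 and 19.4 CPM in the intact libraries and 7.73, 5.88, 9.12 and 14.8 CPM in the deleted ones. Of its 100-base windows 17.1% occur in no other annotated gene. Replicate 4 was high in both genotypes, and the groups overlapped (log2 difference -0.58 ± 0.30, adjusted p = 0.257, edgeR). Rps27rt, a retrocopy of Rps27, had 96.5, 83.7, 82.3 and 78.3 CPM in the intact libraries and 41.5, 71.6, 54.4 and 67.8 CPM in the deleted ones. All deleted libraries lay below the intact ones (log2 difference -0.53 ± 0.18, adjusted p = 0.0986, edgeR). The same separation, short of the adjusted threshold, was seen for Rps6, the S6 kinase substrate, for Rps19, the gene most often mutated in human Diamond-Blackfan anaemia, and for Rps18, Rps20 and Rpsa. Their log2 differences ran from -0.49 for Rps20 to -0.43 for Rps19. With up to 3 mismatches allowed, the share of windows in no other annotated gene was 2.17% for Rps18, 9.45% for Rps27rt and 16.4% for Rps6. It was 36.5% for Rps19, 56.9% for Rpsa and 93.1% for Rps20, so several of these levels may include reads of other copies. Rps20 had 208.5, 241.2, 230.1 and 226.8 CPM in the intact libraries and 100.8, 198.1, 165.2 and 182.2 CPM in the deleted ones. The lowest of these, deleted replicate 1, was the lowest of the 8 libraries for 75 of the 85 tested genes. The remaining separated genes were Rpl7l1 at -0.40 ± 0.12 and Rps19bp1 at -0.28 ± 0.12, neither of which encodes a core subunit.

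At the other end, 5 genes had log2 differences above 0 and none came near the threshold. Rpl38, which in mice is needed for the patterning of the axial skeleton, had 1.35, 0.897, 0.783 and 1.40 CPM in the intact libraries and 0.697, 1.19, 1.32 and 2.61 CPM in the deleted ones. The highest value was in deleted replicate 4 and the lowest in deleted replicate 1, and the difference was 0.38 ± 0.44. Rps16, whose protein has a tail that contacts the tRNA, differed by 0.35 ± 0.45, and Rpl13 by 0.35 ± 0.48, both with their highest level in deleted replicate 4. Without that library Rpl38, Rps16 and Rpl13 lay at -0.05, -0.03 and -0.27. Rpl10, a late-joining protein near the peptide-forming centre, differed by 0.06 ± 0.24 and Rpl41, the shortest ribosomal protein, by 0.02 ± 0.20, and both changed sign between scalings. Adjusted p-values of these 5 genes ran from 0.619 for Rpl38 to 0.963 for Rpl41 (edgeR).

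**Figure D3:**
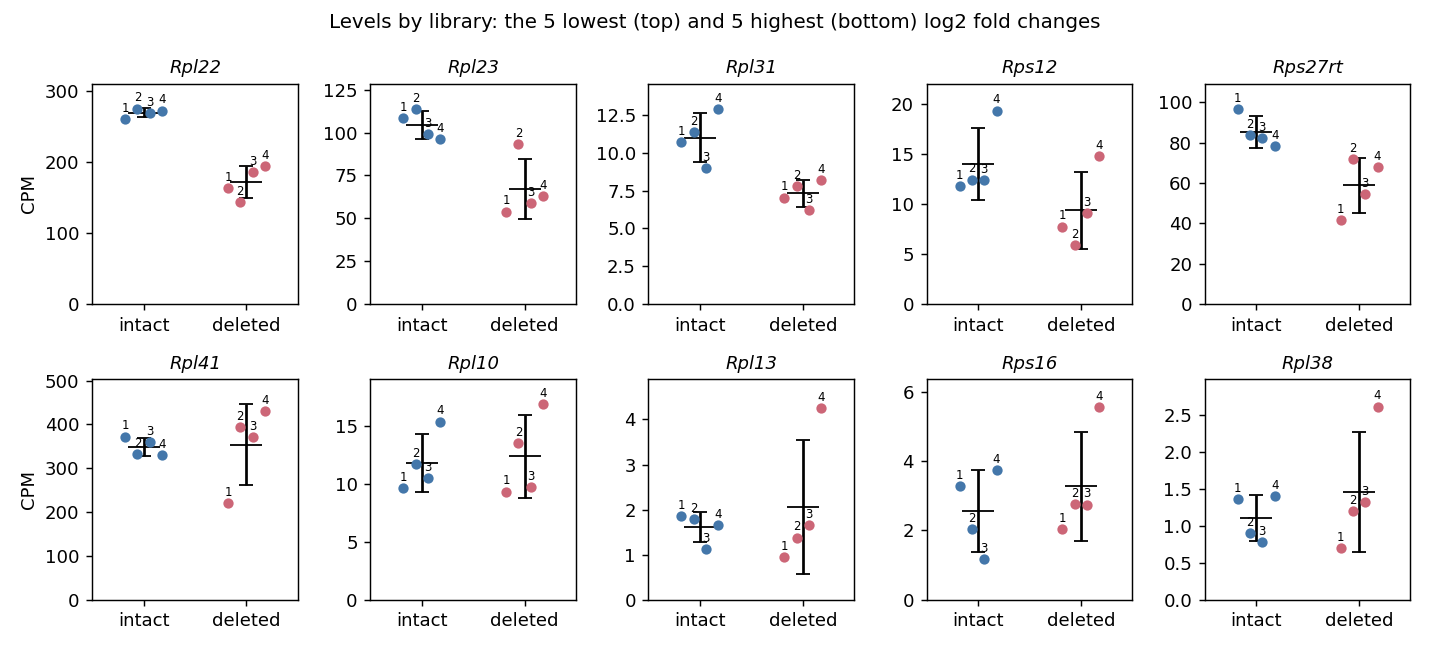
CPM in each library for the 5 ribosomal protein genes with the lowest (top) and highest (bottom) log2 fold changes; points are numbered by replicate, bars are mean ± SD over 4 libraries and axes start at 0. Rpl22 lies between 260.7 and 275.1 CPM in the intact libraries and between 143.7 and 193.5 CPM in the deleted ones, whereas in the bottom row the genotypes overlap and deleted replicate 4 is highest.

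Levels differed widely between the genes. They are given on the length-scaled RPKM scale (CPM divided by gene length in kilobases). Among the tested genes, the mean of the intact libraries ran from 2.06 for Rpl13 to 1072 for Rpl8, a 520-fold range with a median of 77.9. Of their 100-base windows 21.1% and 97.6% occur in no other annotated gene. Rpl8, a protein of the peptide-forming centre, was followed by Rplp1 of the stalk that recruits elongation factors at 988 RPKM, Rpl41 at 776, Rps15 at 718 and Rpl32 at 598. None of these 5 most abundant genes passed the test. Rpl8 had 865.3, 1000.5, 943.7 and 885.6 CPM in the intact libraries and 543.6, 1110.4, 883.7 and 881.9 CPM in the deleted ones, with only deleted replicate 1 clearly apart. Rplp1 was also lowest in deleted replicate 1, with 464.0, 493.1, 458.5 and 433.5 CPM in the intact libraries and 267.0, 431.3, 413.4 and 490.3 CPM in the deleted ones.

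How closely level followed sequence uniqueness depended on how uniqueness was counted. The transcript of each gene was divided into 100-base windows, the length of a read, and a window was called unique where no other annotated gene held it with up to 3 mismatches or, as an alternative chosen after seeing the data, without any mismatch. Spearman's rho between RPKM and the unique share was 0.163 over 84 genes with mismatches allowed and 0.553 with exact matching, given as a description. Rplp1 shows the difference, with 0.75% unique windows by the first count and 70% by the second. Rps27 had 1.63% by both, and Rpl13, the lowest of the tested genes, had 21.1% by both. Some genes were low although much of their sequence is their own. Rpl38 at 3.0 RPKM had 57.4% unique windows, Rps16 at 4.16 RPKM had 65.2% and Rps29 at 3.37 RPKM had 75.3%, with exact shares of 58.1%, 66.1% and 75.3%. The median log2 fold change differed little between the classes. With mismatches allowed, it was -0.30 in the 33 tested genes with at least 50% unique windows and -0.23 in the 51 with less, and with exact matching it was -0.25 in 48 genes and -0.26 in 36. Annotated ribosomal protein pseudogenes held reads amounting to 3.15% to 3.66% of those of the 89 genes in each library.

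**Figure D4:**
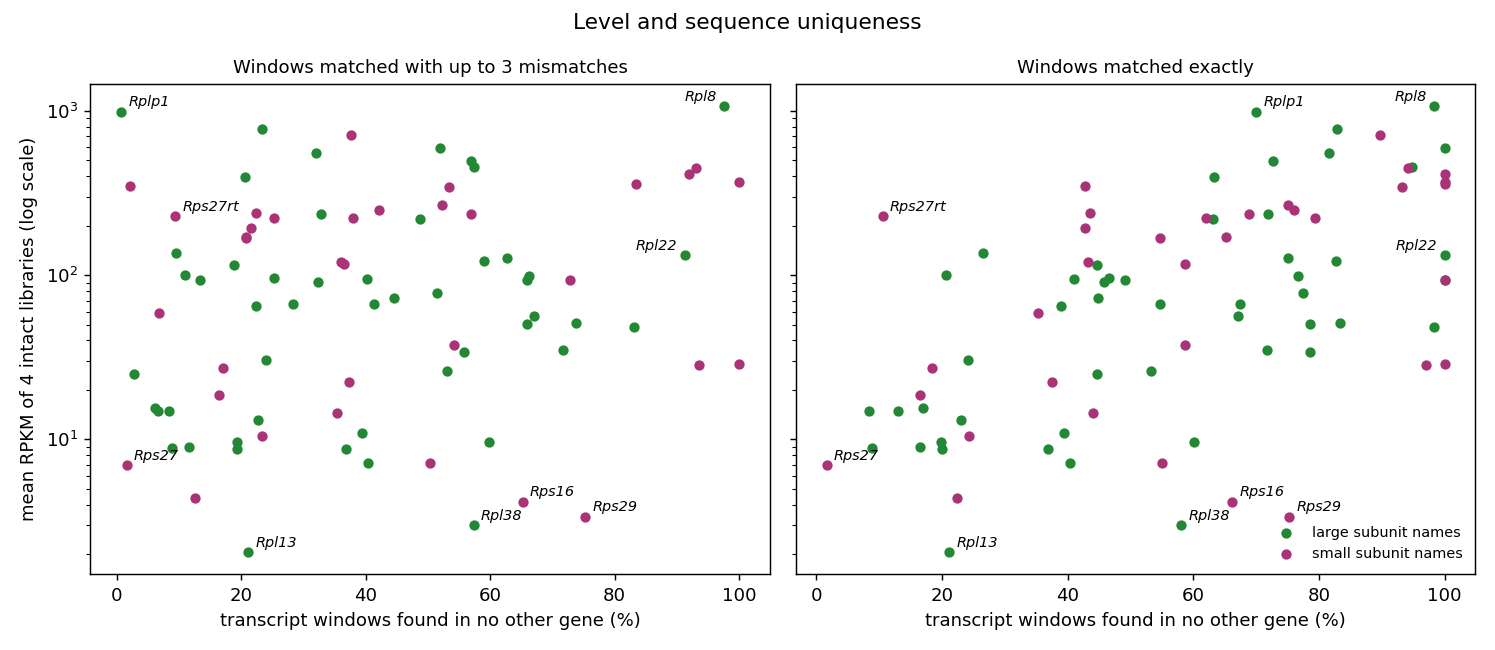
Mean RPKM of the 4 intact libraries (log scale) against the percentage of a transcript's 100-base windows found in no other annotated gene, with up to 3 mismatches (left) and exactly (right), for 84 tested ribosomal protein genes coloured by subunit name. Spearman's rho is 0.163 on the left and 0.553 on the right, Rplp1 moves from 0.75% to 70%, and Rpl38, Rps16 and Rps29 are low in both panels although more than 57% of their windows are unique.

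Retrocopies show how reads and gene names can part. The first 60 coding bases of 2 parents and their retrocopies, from GENCODE M21 transcripts, are given because they show what a read has to tell apart. The paralogue Rps27l, which is not a retrocopy and has 83.5% unique windows, is set beside them for comparison. Capitals mark bases that differ from the parent.
Rps27 (chr3:90212667-90213648): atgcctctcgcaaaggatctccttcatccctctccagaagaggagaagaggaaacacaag
Rps27rt (chr9:114982366-114982739): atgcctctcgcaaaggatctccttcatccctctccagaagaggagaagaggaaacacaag
Rps27l (chr9:66944624-66949522): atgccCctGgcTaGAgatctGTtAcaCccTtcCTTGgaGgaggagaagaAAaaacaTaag
Rpl37 (chr15:5116613-5119140): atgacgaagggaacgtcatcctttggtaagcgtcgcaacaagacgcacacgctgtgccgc
Rpl37rt (chr5:115102922-115110268): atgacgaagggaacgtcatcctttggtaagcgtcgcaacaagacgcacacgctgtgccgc
Over the 255 bases of the Rps27 reading frame Rps27rt differs at 0 and Rps27l at 61. Over the 294 bases of the Rpl37 frame Rpl37rt differs at 1. Of the reads counted for a parent and its retrocopy, the retrocopy carried most. Rps27 stood at 6.98 RPKM in the intact libraries and Rps27rt at 227.8, and Rpl37 stood at 50.6 and Rpl37rt at 493.1. How the authors treated reads that match several places is not given in the sources used here, so the separate levels of a parent and its copy are uncertain. Rpl37rt had 306.6, 337.7, 294.3 and 311.9 CPM in the intact libraries and 149.9, 311.3, 239.2 and 275.9 CPM in the deleted ones, low in deleted replicates 1 and 3 like the family as a whole.

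Genes with few reads varied in a different way. The 16 tested genes under 10 CPM in the intact group had a median log2 fold change of -0.13, and the 69 others -0.27. In those 16 the median deviation from the intact mean was 0.27 in intact replicate 4 and 0.42 in deleted replicate 4, against -0.59 in deleted replicate 1. Intact replicate 4 was the highest intact library for 12 of the 16 and for 16 of the other 69. By exact matching it was highest for 18 of 36 genes with under 50% unique windows and for 10 of 48 others. With mismatches allowed these were 18 of 51 and 10 of 33. Low level and shared sequence were not separated here. Both replicates 4 had the highest mitochondrial share of their genotype, 23.5% and 34.4%, and the part of that share in the pattern was not tested. Rps2, a small subunit protein at the mRNA entry, split the intact group instead, with 73.9 and 79.7 CPM in the 2 littermates of 1 litter and 37.0 and 43.0 CPM in the other 2 intact libraries. Its deleted libraries had 35.3, 64.7, 44.9 and 59.4 CPM, within that range or just under it.

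Paralogues can stand in for each other in the ribosome, and their ratio within a library does not depend on scaling. In mice the Rpl22 protein is known to repress Rpl22l1. Rpl22l1 had 24.8, 31.9, 37.0 and 32.8 CPM in the intact libraries and 15.6, 48.8, 20.3 and 27.7 CPM in the deleted ones. Its highest level was in deleted replicate 2, where Rpl22 was lowest, and its lowest in deleted replicate 1. The log2 ratio of Rpl22l1 to Rpl22 was -3.10 ± 0.22 (SD, n = 4) in intact and -2.73 ± 0.82 in deleted libraries. That difference, 0.37, did not exceed the spread (exact permutation p = 0.6, two-sided, adjusted 0.8 over 4 pairs), and without deleted replicate 2 it was -0.02. Exons of Rpl22l1 overlap the antisense gene Gm33051 by 159 bases.

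The ratio of Rpl7l1, a nucleolar relative, to Rpl7 differed by -0.13 (exact permutation p = 0.286, adjusted 0.629). For Rpl36al, which overlaps the exons of Gm49383 on the same strand by 332 bases, over Rpl36a the difference was 0.21 (exact permutation p = 0.314, adjusted 0.629), and for Rps27l, a p53 target, over Rps27 it was 0.04 (exact permutation p = 0.857). All 4 pairs overlapped between genotypes, and the smallest p this design allows is 0.0286. The counted levels were uneven within pairs. Rpl36al stood at 94.2 RPKM and Rpl36a at 9.0, and Rps27l stood at 358.0 RPKM and Rps27 at 6.98. The lower gene of both these pairs had few unique windows, 11.7% for Rpl36a and 1.63% for Rps27, so these levels are uncertain. Rpl3, Rpl10 and Rps4x had no tested partner. Rpl3 had a log2 difference of -0.25 ± 0.16 and Rps4x one of -0.32 ± 0.17, neither past the threshold. The partners Rpl3l, which is restricted to muscle, and Rpl10l and Rpl39l, which belong to the testis, had 10, 0 and 2 reads in all 8 libraries together. Rpl39 itself, which lines the peptide tunnel, had 9 reads in all and was not tested either.

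**Figure D5:**
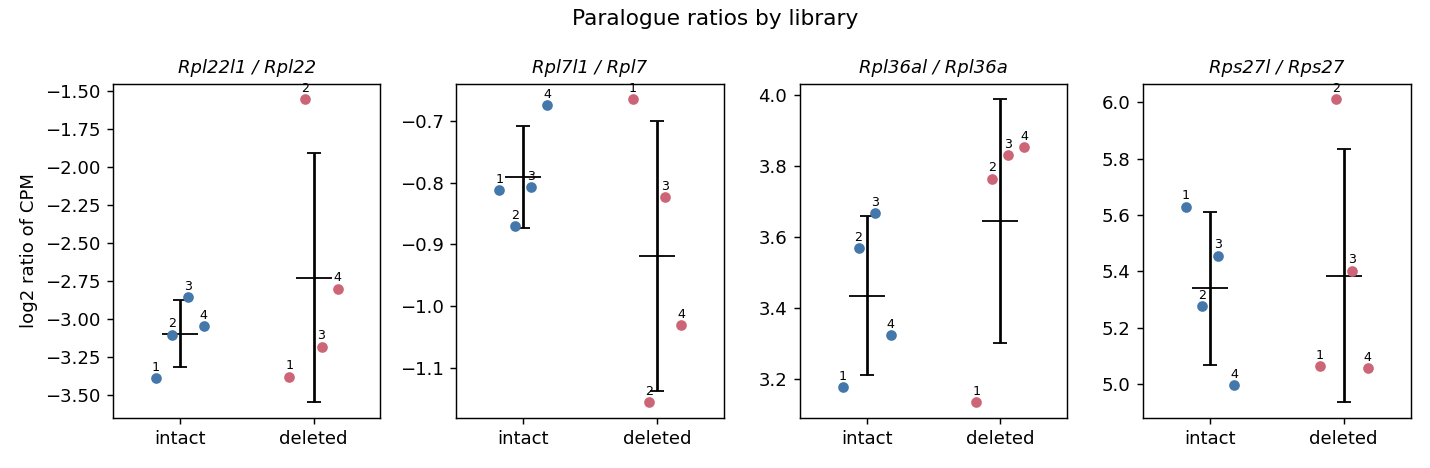
Log2 ratio of the CPM of a paralogue to that of its relative for 4 pairs, with points numbered by replicate and bars showing mean ± SD over 4 libraries. The genotypes overlap in every pair, and deleted replicate 2 has the highest ratio of Rpl22l1 to Rpl22.

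The start of each gene was searched for a pyrimidine tract, defined as a C within 5 bases of the listed start followed by at least 4 C or T on the coding strand. The windows, 10 bases before to 20 from the start on, came from RefSeq promoters of GRCm38.p6, in which 69 of the 89 genes were found. The tract was present in 31 of the 69 (44.9%), in 19.8% of tested genes outside the family and in 18.5% of all promoters. Windows of genes at both ends of the ranking and of Rpl41, among the most abundant, are shown because they let the gene that was called be compared with the rest; capitals mark the tract.
Rpl22 (chr4:152325716-152325745, plus strand): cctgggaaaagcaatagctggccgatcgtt
Rpl23 (chr11:97782420-97782449, minus strand): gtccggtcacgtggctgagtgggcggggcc
Rpl31 (chr1:39367841-39367870, plus strand): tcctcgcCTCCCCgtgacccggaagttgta
Rps12 (chr10:23787190-23787219, minus strand): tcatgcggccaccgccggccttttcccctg
Rps27rt (chr9:114982720-114982749, minus strand): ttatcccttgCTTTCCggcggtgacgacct
Rpl38 (chr11:114668570-114668599, plus strand): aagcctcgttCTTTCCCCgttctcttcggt
Rps16 (chr7:28350679-28350708, plus strand): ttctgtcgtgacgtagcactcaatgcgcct
Rpl13 (chr8:123102340-123102369, plus strand): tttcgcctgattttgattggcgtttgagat
Rpl10 (chrX:74270806-74270835, plus strand): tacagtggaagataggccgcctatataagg
Rpl41 (chr10:128549149-128549178, minus strand): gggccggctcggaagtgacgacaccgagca
A tract was found in Rpl31 and Rps27rt among the 5 genes with the lowest fold changes and in Rpl38 among the 5 with the highest. Windows without capitals say only that these letters are not near the listed start, which can lie away from the start used in these cells.

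Other parts of the translation machinery had medians from -0.31 to -0.01, with few genes called. The median was -0.25 for the ribosomal proteins and 0.05 for all tested genes. The counts given for each group stand beside 5.1% of all tested genes called higher and 2.8% called lower, and no share of a group was tested against them. Rack1, a ribosomal protein with another kind of name and the scaffold on the small subunit, was not called. It had 598.9, 715.2, 683.9 and 640.9 CPM in the intact libraries and 307.4, 714.7, 544.4 and 618.5 CPM in the deleted ones, low again in deleted replicates 1 and 3. Among 19 other mRNAs known for a pyrimidine tract none was called and the median was -0.28. Eef1a1, the most abundant of them and a factor that brings tRNA to the ribosome, had 3289, 3769, 3346 and 3250 CPM in the intact libraries and 2034, 2957, 2952 and 3189 CPM in the deleted ones, with no deleted library above the lowest intact one. Of 8 elongation factor genes 1 fell, Eif5a2, at -0.66 ± 0.16 (adjusted p = 0.0435, edgeR), with a median over the 8 of -0.31. Of 9 release and rescue factors none was called (median -0.14), and the most abundant, Abce1, which splits ribosomes after termination, differed by -0.48 ± 0.16 (adjusted p = 0.0947, edgeR). Summed, these 9 had between 1175 and 1311 CPM in the intact libraries. In deleted replicates 1 to 4 they had 851.1, 1245, 1035 and 876.2 CPM, so deleted replicate 4 was low as well, unlike for the ribosomal proteins.

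Among initiation factors and regulators the few genes called were higher. Of 41 initiation factor genes 2 rose and 0 fell, with a median of -0.17, where 5.1% of all tested genes rose. Those were Eif2b2, a subunit of the exchange factor for eIF2, at 1.00 ± 0.23 (adjusted p = 0.0373, edgeR), and Eif2s3y, a subunit of eIF2 with a close homologue on the X chromosome, at 0.59 ± 0.15 (adjusted p = 0.0465, edgeR). Of 17 regulators of ribosomal protein mRNA translation 1 rose, with a median of -0.01, again near the 5.1% of all genes. This was Rptor, the mTORC1 scaffold, with 73.9, 65.0, 66.4 and 69.8 CPM in the intact libraries and 115.1, 123.5, 129.3 and 119.6 CPM in the deleted ones, every deleted library far above every intact one (log2 fold change 0.83 ± 0.10, adjusted p = 0.00592, edgeR). Of 17 genes for escort and assembly proteins of ribosomal proteins 1 fell, where 2.8% of all tested genes fell, with a median of -0.31. It was Pdcd2, an escort of Rps2, with 19.8, 24.3, 20.2 and 18.9 CPM in the intact libraries and 13.8, 16.5, 12.7 and 13.8 CPM in the deleted ones, which did not overlap (-0.55 ± 0.14, adjusted p = 0.0492, edgeR). Of 10 genes of the p53 checkpoint linked to free ribosomal proteins 1 fell, with a median of -0.31. This gene, Trp53inp1, a p53 target, stood at 582.4 ± 53.3 CPM (SD, n = 4) in intact and 369.0 ± 55.0 CPM in deleted libraries (-0.66 ± 0.15, adjusted p = 0.0364, edgeR).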

How the data were processed

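Whole-number counts by Entrez gene, not normalized, were deposited for 8 libraries of polyadenylated RNA, sequenced as 100-base single-end reads per the labels' protocols. Build mm10, featureCounts and CASAVA 1.8.2 are named in the submitters' processing notes. Aligner, strand setting and treatment of multiply matching reads are not given in the sources used here. Symbols came from RefSeq GRCm38.p6 by Entrez identifier (25275 of 27179 matched; the assembly is also called mm10). The per-sample tables were identical to the series table.

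Tests used edgeR 4.0.16 under R 4.3.3 (filterByExpr, minimum count 10, TMM, robust quasi-likelihood F test, 4 against 4 libraries, no covariate), with Benjamini-Hochberg adjustment over 13498 genes and calls at an adjusted p under 0.05. CPM and RPKM use TMM library sizes and the deposited gene lengths. Standard errors were obtained by dividing the size of the log2 fold change by the root of F. Log2 CPM used a prior count of 2. P-values measure the spread between cultures of separate fetuses; littermates were treated as separate. Paralogue ratios were compared over all 70 arrangements of the libraries. Alternatives used DESeq2 1.42.0, limma 3.58.1, other scalings, filters, blocks and left-out libraries. The members, lists and naming rule were chosen with earlier results of these data known. The rule named called and untested members, paralogue pairs, the 5 lowest and 5 highest fold changes, the 5 highest RPKM and, per list, up to 3 called genes or the most abundant. Genes described beyond it (those whose genotypes did not overlap, Rps2, Rps29, Rpl37, Rpl37rt and cell type markers that were not called) were chosen after their values were seen. Some genes are not reported here by name. On simulated counts for 13280 genes, 34.0% of 2-fold and 79.8% of 4-fold changes were recovered and 5 unchanged genes were called. No paired design is given. After each gene's genotype mean was subtracted from log2 CPM, same-numbered libraries correlated at 0.096, 0.221, 0.110 and 0.331 for replicates 1 to 4. The same-numbered deleted library was the best match for intact replicates 2 and 4 and not for replicates 1 and 3.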

Additional observations from a re-analysis of the deposited data

Results flagged for a closer look

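Of 56 groups of 4 libraries examined over the named genes and ratios, 3 held a library that stood far from the other 3, and chance flags about 1 group in 20. Rps12 reached 19.4 CPM in intact replicate 4, and the gap to the next intact library was 0.911 of the group's range. Rps27l reached 189.9 CPM in intact replicate 3, with a gap of 0.832 of the range. The log2 ratio of Rpl36al to Rpl36a was 3.13 in deleted replicate 1, with a gap of 0.876 of the range.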

How the results depend on the processing

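The number of ribosomal protein genes called higher was 0 in all 25 settings, and their median log2 fold change lay below that of all genes in each, from -0.38 with library totals only to -0.01 without deleted replicates 1 and 3. The number called lower, 1 in the report, was 4 with upper-quartile scaling, 9 with DESeq2, 12 with limma-voom and sample weights, 0 with littermates summed, 0 with replicate number as a block and 0 to 11 without 1 replicate. Calls over all 13498 tested genes moved as well. They were 378 lower in the report, 452 with upper-quartile scaling, 889 with DESeq2 and 999 with sample weights.

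Over all genes, 688 were higher and 378 lower. The count higher was 309 with library totals only, 1311 with DESeq2, 1308 with sample weights, 235 with litter as a random block, 106 with littermates summed, 204 with the replicate block, 429 with mitochondrial share as a covariate, 1160 without the deleted pair that kept Kat7 reads and 102 to 1260 without 1 replicate. The count lower was 889 with DESeq2, 999 with sample weights, 187 with the random block, 87 with littermates summed, 115 with the replicate block, 245 with the covariate, 590 without deleted replicates 1 and 4, 1139 without the pair that kept Kat7 reads and 86 to 922 without 1 replicate. With the mitochondrial genome left out of the total, the share of reads in ribosomal protein genes was 1.45% in intact and 1.18% in deleted libraries, against 1.15% and 0.885%.

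The paralogue difference for Rpl22l1 over Rpl22 ran from -0.02 to 0.59 without 1 replicate, and that for Rps27l over Rps27 was -0.01 at a prior count of 10 and ran from -0.17 to 0.15 without 1 replicate. Log2 fold changes near 0 changed sign. Rpl10 was -0.08 with library totals, -0.02 with limma-voom, -0.01 with sample weights, -0.08 with the random block, -0.05 with littermates summed, -0.05 with the covariate and -0.05 without deleted replicates 1 and 4. Rpl41 was -0.01 with upper quartile scaling, -0.11 with library totals, -0.00 without mitochondrial reads, -0.02 with limma-voom, -0.05 with the random block, -0.05 with littermates summed, -0.02 with the replicate block and -0.01 with no filter. Rpl36al was 0.02 with the covariate and 0.00 at a minimum count of 50. Without deleted replicates 1 and 4, Rpl13 was -0.10, Rpl22l1 0.10, Rpl36al 0.09, Rpl8 0.09 and Rps15 0.06. Without deleted replicates 1 and 3, Rpl22l1 was 0.27, Rpl32 0.08, Rpl36al 0.31, Rpl8 0.11 and Rps15 0.12. Without 1 replicate, Rpl10 ran from -0.12 to 0.20, Rpl13 from -0.27 to 0.59, Rpl22l1 from -0.58 to 0.02, Rpl36al from -0.13 to 0.19, Rpl38 from -0.05 to 0.61, Rpl41 from -0.09 to 0.19, Rpl8 from -0.26 to 0.05, Rps15 from -0.20 to 0.08 and Rps16 from -0.03 to 0.58. The causes were not tested. With 0 to 10 reads in all 8 libraries, 4 genes could not be tested. Spearman's rho of level against unique windows was 0.163 with mismatches allowed and 0.553 with exact matching.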
